A study of Homo sapiens with 9 samples.

Results

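The genes described here are 10 factors that switch on or maintain epithelial and luminal gene expression: the transcription factors ELF3, SPDEF, EHF, GRHL1, GRHL2, OVOL1, KLF5, FOXA1 and GATA3, and the splicing factor ESRP1. All 10 were found by symbol among the 63657 Ensembl genes of the deposited expression table. They were selected by name, with earlier results for the contrast of shLOXL2 with shControl already known (ELF3 and SPDEF had been seen to be higher). Their values in that contrast are therefore given as a description, with no p-value for any of the 10, and nothing is supported with them.

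RNA was measured in 4 libraries of MDA-MB-231, an established human line of triple-negative breast cancer cells with a mesenchymal character. In 2 of these libraries the cells carried a control short hairpin RNA (shControl), and in the other 2 they carried a short hairpin RNA against LOXL2 (shLOXL2), the enzyme to which oxidation of histone H3 at lysine 4 (H3K4ox) is attributed. The labels give no time after infection, no hairpin sequence and no statement on separate cultures, so each spread below is between 2 libraries and may be technical. The series holds 9 samples in all, and its H3K4ox and ATAC-seq peaks were not placed at these genes because no annotation of their build was used.

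ELF3, EHF and SPDEF belong to the ETS family and, with ELF5, are the ETS factors most restricted to epithelia. Grainyhead-like factors (GRHL1, GRHL2) activate genes of cell junctions, and OVOL1 is a zinc finger repressor that opposes mesenchymal factors. ESRP1 makes cells include epithelial exons, for example in CD44 and FGFR2. FOXA1 and GATA3 are the luminal factors that work with the oestrogen receptor in the breast, and KLF5 is a zinc finger factor of proliferating epithelium. In mesenchymal cells the repressors ZEB1, ZEB2 and SNAI2 bind E-box sequences in promoters of epithelial genes and keep many of them low.

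The promoters of 4 of these factors are shown because they differ widely in expression: ELF3 and SPDEF, the 2 members with the largest differences, EHF, the most abundant, and FOXA1, listed at a very low level. Each line gives the 250 bases before a start site of RefSeq, GRCh38.p14, 5′ to 3′ on the strand of the gene. For EHF this is the second of its 2 RefSeq windows, and the start used in these cells is not known. Capitals mark the letters of 6 motifs searched on both strands. The E-box bound by ZEB and SNAI factors was searched as CAGGTG, and the grainyhead motif as AACNGGTT. The motif of the ETS family was searched as CCGGAAG, while that of the FOXA factors was searched as TGTTTAC. The motif of the GATA factors was searched as AGATAA, and finally that of the KLF family as GGGNGTGG.
ELF3, chr1:202010337-202010586, plus strand: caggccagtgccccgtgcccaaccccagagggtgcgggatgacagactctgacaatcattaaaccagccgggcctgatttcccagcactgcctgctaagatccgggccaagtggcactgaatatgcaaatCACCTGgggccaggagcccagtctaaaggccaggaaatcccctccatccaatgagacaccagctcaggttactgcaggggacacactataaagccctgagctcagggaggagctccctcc
SPDEF, chr6:34556330-34556579, minus strand: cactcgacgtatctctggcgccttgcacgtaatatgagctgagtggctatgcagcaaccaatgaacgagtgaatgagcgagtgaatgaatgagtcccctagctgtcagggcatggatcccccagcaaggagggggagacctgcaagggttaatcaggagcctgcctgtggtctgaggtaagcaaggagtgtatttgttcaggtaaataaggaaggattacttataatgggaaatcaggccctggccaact
FOXA1, chr14:37595250-37595499, minus strand: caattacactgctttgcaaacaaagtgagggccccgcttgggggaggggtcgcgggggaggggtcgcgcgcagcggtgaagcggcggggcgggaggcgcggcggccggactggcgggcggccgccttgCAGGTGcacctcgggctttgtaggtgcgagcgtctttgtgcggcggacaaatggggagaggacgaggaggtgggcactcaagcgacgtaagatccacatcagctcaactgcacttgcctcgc
EHF, chr11:34632316-34632565, plus strand: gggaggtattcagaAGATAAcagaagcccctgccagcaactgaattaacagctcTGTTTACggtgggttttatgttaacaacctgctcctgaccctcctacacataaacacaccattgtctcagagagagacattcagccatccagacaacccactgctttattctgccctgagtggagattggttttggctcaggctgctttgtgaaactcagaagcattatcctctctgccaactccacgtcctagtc

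The E-box letters stand at -120 in ELF3, on the reverse strand, and at -122 in FOXA1, counted from the first transcribed base. The same letters occur in 20.6% of all 35116 RefSeq windows, each reaching from 250 bases before to 50 after a start. The 250 bases shown for SPDEF hold none of the 6 motifs. The EHF window shown holds the FOXA letters at -196 and the GATA letters at -236, which occur in 3.42% and 10.3% of all windows. The first EHF window, not shown, holds none of the 6 motifs. In all, 7 of the 10 members had a window. Of these, 2 held the E-box, 1 the ETS letters (GATA3, against 10.3% of all windows), 1 the KLF letters (GATA3, 17.2%) and 0 the grainyhead letters, found in 1.73% of all windows. No matches overlapped each other. A match describes letters only, and members with several windows had more bases searched.

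Expression was given in FPKM, in which fragments are divided by the length of the transcript and by the mapped fragments of the library, so that levels can be compared between genes. The depth behind an FPKM value is unknown. In bulk RNA, fewer cells of a type and less RNA per cell cannot be told apart. By level, the 10 factors fell into 3 sets in these cells. EHF, SPDEF and KLF5 were well expressed, at a mean above 10 FPKM over the 4 libraries. ELF3 and GATA3 were low, and GRHL1, FOXA1, ESRP1, GRHL2 and OVOL1 were below 1 FPKM in every library. Of these last 5, ESRP1, GRHL2 and OVOL1 had a mean under 0.1 FPKM. Only the 5 members with a mean of at least 1 FPKM entered the fit over all genes, described next.

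**Figure D1:**
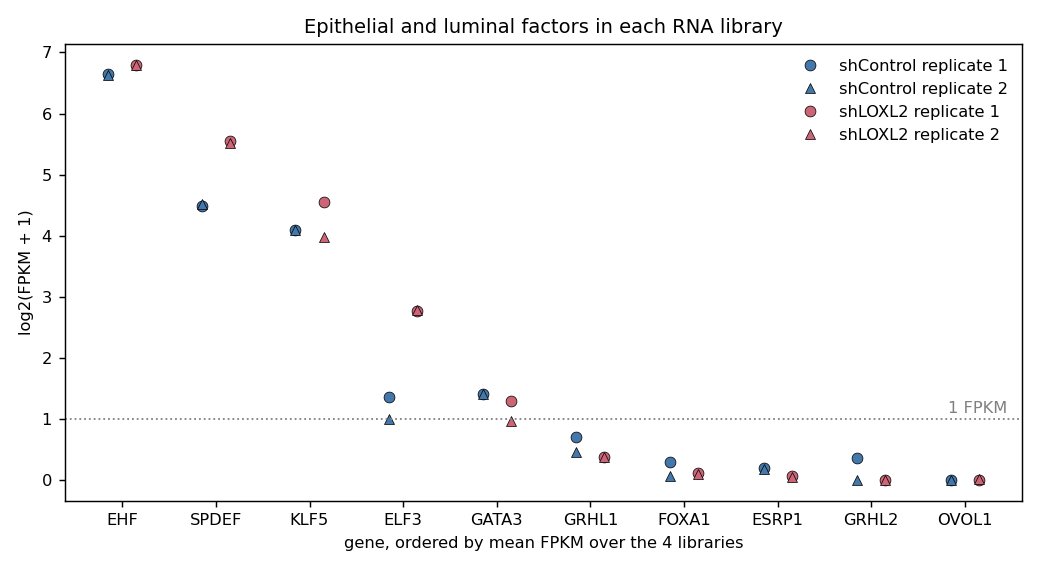
Expression of the 10 factors in each RNA library, as log2(FPKM + 1) on the vertical axis, with circles and triangles for replicates 1 and 2 (shControl in blue, shLOXL2 in red). EHF, SPDEF and KLF5 lie far above the dotted line at 1 FPKM, SPDEF and ELF3 are higher in both shLOXL2 libraries, and the 5 factors to the right of GATA3 lie below the line in all 4 libraries.

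Log2 differences are those of log2(FPKM + 1), shLOXL2 minus shControl, a scale that understates the difference of low genes. They come with the standard error of limma's moderated test, fitted on 16987 genes. A gene passed, and is called higher or lower, at an adjusted p (Benjamini-Hochberg) under 0.05. Among all genes tested, 16.9% passed, 8.35% higher and 8.54% lower in shLOXL2, and for 64.6% the values of the 2 groups did not overlap. At an unadjusted p under 0.05 by limma, 2997 of the 16987 were higher and 3097 lower. These figures are the background for the counts of every list below. Of the 5 members tested, 3 passed (ELF3, SPDEF and EHF), all higher, and for 4 the groups did not overlap. The members were chosen with this contrast known, so nothing is read from these counts. In fits that omitted any 1 of the 4 libraries, 0 of the 5 passed. Such fits called few genes of any kind, from 18 to 220 higher over the whole table.

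ELF3, also known as ESE-1, is an ETS factor of differentiating epithelium (ENSG00000163435). Its level was 1.55 FPKM in shControl replicate 1, 0.994 FPKM in shControl replicate 2, and 5.84 and 5.88 FPKM with shLOXL2. Both shLOXL2 libraries were above both controls, and the controls differed from each other far more than the shLOXL2 libraries did. The ratio of the group means was 4.60, and the log2 difference was 1.60 ± 0.16 (SE, n = 2 per group). Its size depended on the pseudocount, at 2.15 with 0.1 FPKM and 0.79 with 5 FPKM, and its call was lost when genes below 1 FPKM were tested too. In shControl only 5.70% of the tested genes had a lower mean than ELF3.

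SPDEF drives secretory and luminal differentiation and is an ETS factor (ENSG00000124664). Its levels were 21.4 and 22.0 FPKM with the control hairpin against 45.7 and 44.6 FPKM with shLOXL2. The groups stood well apart and the replicates were close, with SDs of 0.401 and 0.806 FPKM. The ratio of the means was 2.08 and the log2 difference was 1.03 ± 0.04 (SE, n = 2 per group). Unlike that of ELF3, its difference hardly moved with the pseudocount, at 1.06 with 0.1 FPKM and 0.91 with 5 FPKM. It also passed when genes below 1 FPKM were tested too.

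EHF, an ETS factor of glandular epithelium (ENSG00000135373), was the most abundant of the 10, above 90.2% of the tested genes in shControl. It was listed at 99.0 and 98.3 FPKM in shControl and at 110.4 and 110.2 FPKM in shLOXL2. The replicates lay so close that the groups did not overlap, although the ratio of the means was only 1.12. The log2 difference was 0.16 ± 0.03 (SE, n = 2 per group). That call was lost with quantile normalization (log2 0.14), without a trend in the variance prior, when genes below 1 FPKM were tested too, and when libraries were scaled to the same sum without mitochondrial genes (log2 0.08).

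KLF5 (ENSG00000102554) measured 16.1 FPKM in each shControl library, 22.4 FPKM in shLOXL2 replicate 1 and 14.8 FPKM in shLOXL2 replicate 2. The control libraries were alike, while the shLOXL2 libraries fell on either side of them, so the groups overlapped. Its log2 difference was 0.17 ± 0.22 (SE, n = 2 per group), which did not pass. It was 0.45 without shLOXL2 replicate 2 and turned to -0.11 without shLOXL2 replicate 1.

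GATA3, the zinc finger factor of luminal cells (ENSG00000107485), stood at 1.65 and 1.66 FPKM in shControl and at 1.46 and 0.944 FPKM in shLOXL2. Both shLOXL2 libraries were below the controls, by amounts that differed between them. The log2 difference of -0.28 ± 0.18 (SE, n = 2 per group) did not pass, and it was -0.45 when shLOXL2 replicate 1 was omitted and -0.11 when shLOXL2 replicate 2 was. In shControl GATA3 had the next level above ELF3, with ranges of 1.65 to 1.66 and 0.994 to 1.55 FPKM, whereas in shLOXL2 ELF3 was above GATA3.

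**Figure D2:**
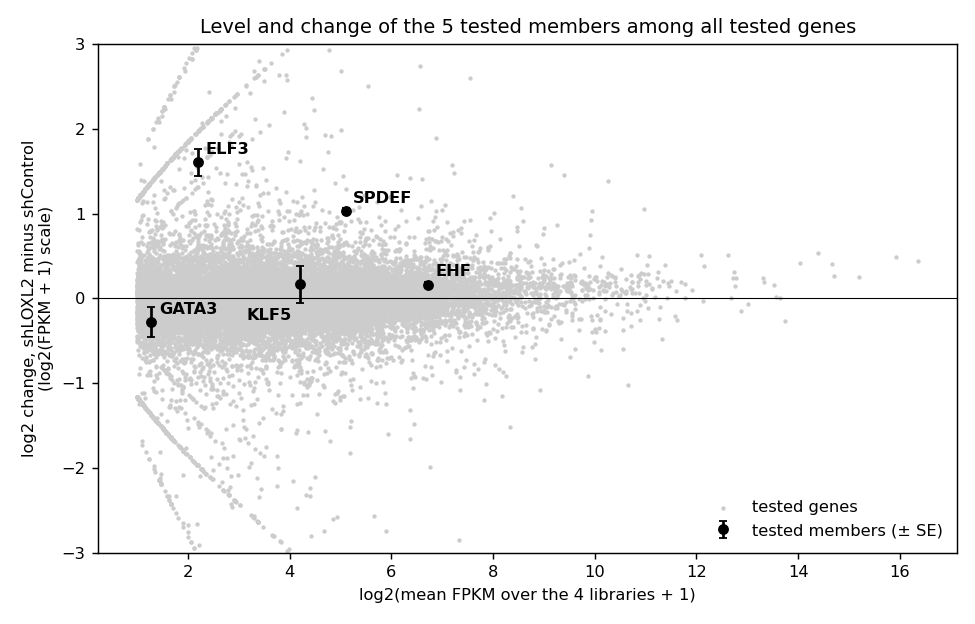
Log2 difference (shLOXL2 minus shControl) against log2(mean FPKM + 1) for the tested genes in grey and the 5 tested members in black with their standard errors; 97 genes beyond 3 in either direction are not drawn. ELF3 (1.60) and SPDEF (1.03) lie above most genes of their level, and EHF (0.16), KLF5 (0.17) and GATA3 (-0.28) lie within the cloud.

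**Figure D3:**
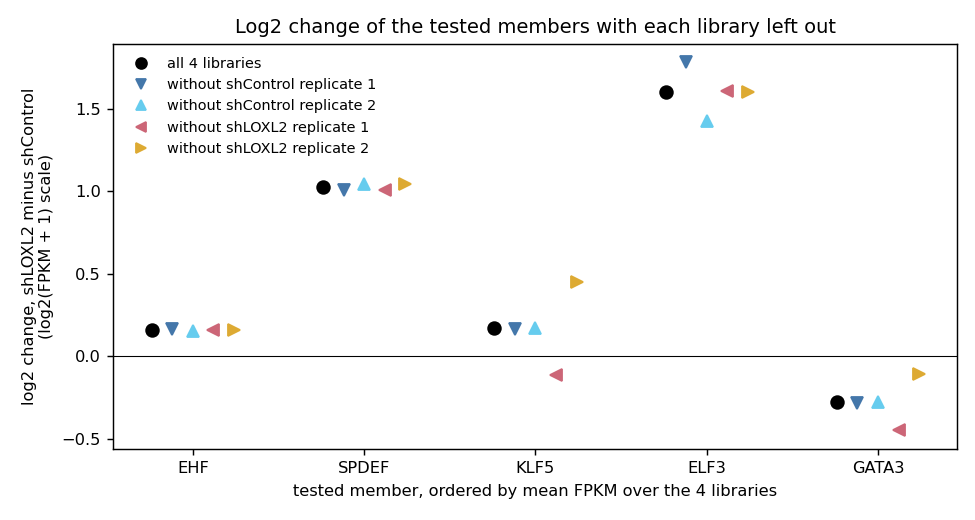
Log2 difference of the 5 tested members with all 4 libraries (black) and with each library left out in turn. SPDEF stays between 1.01 and 1.04, EHF between 0.15 and 0.16 and ELF3 between 1.43 and 1.78, while KLF5 lies on both sides of 0.

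The other 5 factors were not tested, and an FPKM listed at 0 need not mean absence, since the translation factor gene EEF1A1 is listed at 0 in all 4 libraries. GRHL1 (ENSG00000134317), a grainyhead factor, stood at 0.631 and 0.372 FPKM in shControl and at 0.306 and 0.296 FPKM in shLOXL2. GRHL2 (ENSG00000083307), its relative that activates CDH1, was listed at 0.286 FPKM in shControl replicate 1 and at 0 in the other 3 libraries. OVOL1 (ENSG00000172818) was listed at 0 in both shControl libraries and at 0.00336 and 0.0115 FPKM in shLOXL2. All 3 were thus at the bottom of the scale in every library, with GRHL1 the highest of them.

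ESRP1 (ENSG00000104413), the splicing factor, stood at 0.140 and 0.129 FPKM in shControl and at 0.0458 and 0.0351 FPKM in shLOXL2. The groups did not overlap, with the lower values in shLOXL2, but the whole range lies under 0.15 FPKM. FOXA1 (ENSG00000129514), the luminal pioneer factor, stood at 0.220 and 0.0428 FPKM in shControl and at 0.0865 and 0.0668 FPKM in shLOXL2, and the groups overlapped. In shControl the ranges of FOXA1, ESRP1 and GRHL2 overlapped one another, so their order there is not resolved. The sum over all 10 members was 140.9 and 139.6 FPKM with the control hairpin and 186.3 and 176.9 FPKM with shLOXL2, of which the ETS members gave 121.9, 121.3, 162.0 and 160.7 FPKM.

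LOXL2 itself fell to 16.1% of its control level, from 85.5 and 84.5 FPKM to 15.2 and 12.1 FPKM. The FPKM sum over all genes was 1.24e+06 and 1.22e+06 in shControl and 1.33e+06 and 1.37e+06 in shLOXL2, so it was higher with shLOXL2. Sums over members and markers were not scaled for this. The share of the FPKM sum given by mitochondrial genes was 20.4% and 18.5% in shControl and 22.8% and 22.1% in shLOXL2, so it differed between the groups. The 6 markers of basal B breast lines were all expressed, led by VIM (vimentin) at 2011 to 2104 FPKM, and summed to 3379 and 3404 FPKM in shControl and to 3458 and 3434 FPKM in shLOXL2. Of 6 luminal line markers, 4 had a mean of at least 1 FPKM. ESR1 and PGR, the hormone receptor genes, were under 0.1 FPKM in all 4 libraries. CDH1 (E-cadherin) had a mean of 1.03 FPKM, but stood at 0.339 and 0.837 FPKM in shControl and at 1.43 and 1.51 FPKM in shLOXL2. It thus reached 1 FPKM only with shLOXL2. KRT8 was at 111.8 to 146.1 FPKM and TFF1 at 14.9 to 23.4 FPKM. The luminal markers summed to 133.9 and 140.0 FPKM in shControl and to 172.3 and 166.3 FPKM in shLOXL2, a sum made up mostly of KRT8. EPCAM, of the same list, went the other way, with 6.85 and 6.69 FPKM against 4.52 and 5.07 FPKM. The 7 fibroblast markers, 2 of them at 1 FPKM or more, summed to 5.89 and 7.29 FPKM against 12.3 and 10.2 FPKM, with COL1A2, DCN and PDGFRA at a mean under 0.1 FPKM. The 6 myoepithelial markers summed to 33.3 and 30.1 FPKM against 36.4 and 38.2 FPKM, with KRT5 at 0, and the haematopoietic markers to between 2.69 and 3.67 FPKM, with CD3E at 0. The sums of all these lists but the haematopoietic one were thus higher in both shLOXL2 libraries than in both controls. Each of those sums came mostly from a single gene, VIM, KRT8, COL1A1 or MYLK, and does not describe its whole list. CD44 of the basal B list and ACTA2 of the myoepithelial list were lower in both shLOXL2 libraries than in both controls. The part of any of these markers and shares in the differences above was not tested.

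The relatives of the members showed which genes of each family these cells express. EHF was the most abundant of the 28 ETS genes in shControl and in shLOXL2, giving 17.6% and 16.9% of the summed ETS FPKM in shControl and 18.6% in each shLOXL2 library. SPDEF took the 12th place in shControl and the 5th in shLOXL2, giving 3.81% and 3.78% of that sum in shControl and 7.70% and 7.52% in shLOXL2. ELF5, the remaining ETS factor of the epithelial type, was listed at 0 in all 4 libraries.

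Of 16 other ETS genes tested, 2 were higher and 3 lower in shLOXL2, where 8.35% and 8.54% of all tested genes were. Their median log2 difference was -0.02, against -0.00406 over all tested genes. ETV5, which responds to growth factor signalling, fell from 55.0 and 59.0 FPKM to 38.0 and 40.2 FPKM (log2 -0.53, limma adjusted p = 0.0226). ETS2 fell from 12.8 and 14.3 FPKM to 8.54 and 8.48 FPKM (log2 -0.61, limma adjusted p = 0.0240). ELK3 rose from 48.8 and 49.4 FPKM to 57.3 and 57.3 FPKM (log2 0.22, limma adjusted p = 0.0308), and ELF1 rose by log2 0.24 (limma adjusted p = 0.0479). Both rises lost their call with libraries scaled to the same sum without mitochondrial genes (0 higher and 4 lower of the 16), without a trend in the variance prior, and when genes below 1 FPKM were tested too. The lower calls of the list numbered 2 with quantile normalization and 1 when genes below 1 FPKM were tested too. The log2 differences of the 16 ran from -0.84 to 0.24, beside 1.60 for ELF3, 1.03 for SPDEF and 0.16 for EHF.

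**Figure D4:**
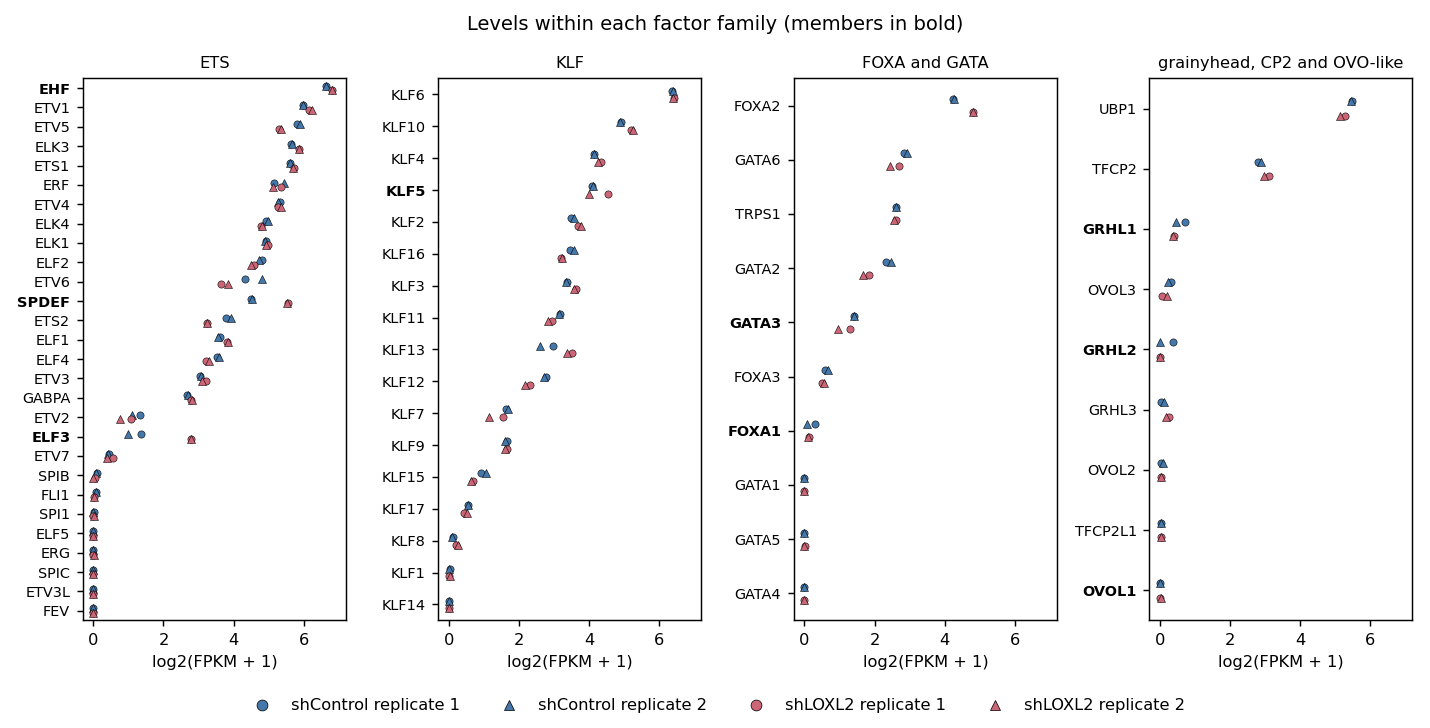
Levels of every gene of 4 factor families as log2(FPKM + 1), ordered within a panel by the shControl mean, with members in bold, circles and triangles for replicates 1 and 2, blue for shControl and red for shLOXL2. EHF heads the ETS panel, FOXA2 lies above FOXA1, and the grainyhead and OVO-like members lie near 0.

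FOXA1 had a mean of 0.104 FPKM, but its relative FOXA2, a factor of endoderm, was expressed at 17.9 and 18.1 FPKM in shControl. FOXA2 rose to 26.9 and 27.0 FPKM in shLOXL2, with the groups apart (log2 0.56 ± 0.03 SE, n = 2, limma adjusted p = 0.0131). FOXA3 was at 0.427 to 0.608 FPKM. GATA2, a factor of blood and endothelial cells, was more abundant than GATA3 and fell from 4.03 and 4.49 FPKM to 2.62 and 2.19 FPKM (log2 -0.63, limma adjusted p = 0.0456). That call was lost with quantile normalization, without a trend in the variance prior, and when genes below 1 FPKM were tested too. GATA6 stood at 6.14 and 6.58 FPKM in shControl and at 5.47 and 4.41 FPKM in shLOXL2 and did not pass (limma adjusted p = 0.160).

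By group mean, KLF5 took the 4th place among 17 KLF genes in shControl and in shLOXL2. It was just behind KLF4, a factor of differentiated epithelium, at 16.7 and 16.6 FPKM in shControl. KLF4 was at 19.3 and 18.2 FPKM in shLOXL2 and did not pass (limma adjusted p = 0.106). KLF5, at 22.4 and 14.8 FPKM there, was above KLF4 in replicate 1 and below it in replicate 2, so their order in shLOXL2 is not resolved. Of 11 other KLF genes tested, 2 were higher and 1 lower in shLOXL2, where 8.35% and 8.54% of all tested genes were. Their median log2 difference was 0.03, which was -0.05 with libraries scaled to the same sum without mitochondrial genes. KLF10, a TGF-beta inducible gene, rose from 28.8 and 28.2 FPKM to 35.8 and 36.8 FPKM (log2 0.34, limma adjusted p = 0.0228). KLF12 fell by 0.50 on the log2 scale (limma adjusted p = 0.0406), and KLF3 rose by log2 0.23 (limma adjusted p = 0.0486). When genes below 1 FPKM were tested too, 1 was higher and 0 lower. The same counts came with a filter at a mean of 5 FPKM, where KLF12 was not tested. With libraries scaled to the same sum without mitochondrial genes, 1 was higher and 2 lower. With a pseudocount of 5 FPKM, without a trend in the variance prior and with a robust variance prior, 1 was higher and 1 lower.

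The remaining grainyhead and OVO-like relatives were as low as the members. GRHL3 stood at 0.0181 and 0.0851 FPKM in shControl and at 0.199 and 0.130 FPKM in shLOXL2, OVOL2 at 0.0220 to 0.0508 FPKM and OVOL3 at 0.0366 to 0.231 FPKM. The distant relatives UBP1 and TFCP2, which are expressed in most tissues, were the only 2 of 6 tested. By limma 0 of the 2 passed, where 16.9% of all tested genes did. At an unadjusted p under 0.05, 0 were higher and 1 lower (UBP1).

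ESRP2, which shares the function of ESRP1, was at 0.770 and 0.930 FPKM in shControl and at 0.618 and 0.896 FPKM in shLOXL2, below the level tested. Of 17 other splicing regulators tested, 4 were lower and 0 higher in shLOXL2 by limma, where 8.54% and 8.35% of all tested genes were. At an unadjusted p under 0.05, 8 were lower and 2 higher. Their median log2 difference was -0.10. QKI, a splicing regulator of the mesenchymal state, fell from 105.4 and 108.6 FPKM to 82.6 and 80.6 FPKM (log2 -0.39, limma adjusted p = 0.0186). MBNL2 fell from 21.6 and 21.4 FPKM to 11.9 and 13.2 FPKM (log2 -0.73, limma adjusted p = 0.0179), with MBNL3 at log2 -0.47 (limma adjusted p = 0.0396) and PTBP2 at log2 -0.50 (limma adjusted p = 0.0170). With the libraries scaled to the same sum without mitochondrial genes, 6 of the 17 were lower.

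Of 7 tested genes that hold ESRP-regulated exons, CTNND1, the p120 catenin gene, rose from 45.8 and 44.0 FPKM to 73.5 and 68.3 FPKM (log2 0.65, limma adjusted p = 0.0171). CD44, the hyaluronan receptor gene, fell from 456.7 and 447.3 FPKM to 348.8 and 340.0 FPKM (log2 -0.39, limma adjusted p = 0.0172), and RALGPS2 fell by 0.46 on the log2 scale (limma adjusted p = 0.0231). By limma 1 of the 7 was thus higher and 2 lower, where 8.35% and 8.54% of all tested genes were. FGFR2 was below 0.25 FPKM in every library. Values per gene do not separate isoforms, so exon use was not analysed here.

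Of the 4 repressors of the epithelial state that were tested, SNAI2 passed and ZEB1, ZEB2 and TCF3 did not. ZEB1 stood at 50.1 and 49.4 FPKM in shControl and at 49.0 and 51.1 FPKM in shLOXL2, with overlapping groups (log2 0.01 ± 0.04 SE, n = 2, limma adjusted p = 0.918). ZEB2 stood at 5.49 and 6.29 FPKM against 5.76 and 4.57 FPKM (limma adjusted p = 0.444). TCF3, which encodes the E-box factors E12 and E47 and is named after its values were seen, was the most abundant of the 4, at 50.5 and 57.8 FPKM against 57.8 and 57.1 FPKM (limma adjusted p = 0.487). SNAI2, the Slug gene, fell from 6.73 and 6.54 FPKM to 4.62 and 4.28 FPKM (log2 -0.49, limma adjusted p = 0.0297). By limma 1 of the 4 was lower and 0 higher, where 8.54% and 8.35% of all tested genes were. At an unadjusted p under 0.05, 1 was lower and 0 higher. The call of SNAI2 was lost when genes below 1 FPKM were tested too. TWIST1, TWIST2 and GSC were listed at 0 in all 4 libraries.

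Among 11 other epithelial and luminal factors tested, CREB3L1, a factor of secretory cells, rose from 12.8 and 12.5 FPKM to 19.3 and 17.4 FPKM (log2 0.50, limma adjusted p = 0.0288). By limma 1 of the 11 was higher and 0 lower, where 8.35% and 8.54% of all tested genes were. At an unadjusted p under 0.05, 3 were higher and 1 lower, and the median log2 difference was -0.01. With the libraries scaled to the same sum without mitochondrial genes, and when genes below 1 FPKM were tested too, 0 passed.

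Of 30 effector genes of the epithelial state, such as those of cell junctions, 22 were tested. In shLOXL2 12 of the 22 were higher and 2 lower, where 8.35% and 8.54% of all tested genes were, and the median log2 difference was 0.43. The 12 include PPL (periplakin), which averaged 0.514 FPKM in shControl and so was tested only through its shLOXL2 values. When genes below 1 FPKM were tested too, 6 were higher and 0 lower. CLDN4 (claudin 4) rose from 22.1 and 22.5 FPKM to 37.1 and 38.9 FPKM (log2 0.74, limma adjusted p = 0.0131). F11R, the gene of the junctional protein JAM-A, rose from 26.0 and 25.7 FPKM to 38.6 and 37.8 FPKM (log2 0.55, limma adjusted p = 0.0131). JUP (plakoglobin) and SPINT2 (a protease inhibitor) rose by log2 0.96 (limma adjusted p = 0.0116) and log2 0.91 (limma adjusted p = 0.0124).

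The 2 that fell, named after their values were seen, were EPCAM, from 6.85 and 6.69 FPKM to 4.52 and 5.07 FPKM (log2 -0.42, limma adjusted p = 0.0443), and AP1M2, a subunit of the epithelial sorting adaptor (log2 -0.68, limma adjusted p = 0.0237). With quantile normalization 1 gene of the list was called lower. CDH1 stood at 0.339 and 0.837 FPKM in shControl and at 1.43 and 1.51 FPKM in shLOXL2, with the groups apart, and did not pass (limma adjusted p = 0.148). It averaged 0.588 FPKM in shControl, and so was tested, and entered the median of the list, only through its shLOXL2 values. RAB25, a GTPase gene of epithelia, was at 0.0363 and 0.0367 FPKM in shControl and at 0 in both shLOXL2 libraries.

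Of 13 luminal and secretory effector genes tested, 8 were higher and 0 lower by limma, where 8.35% and 8.54% of all tested genes were. At an unadjusted p under 0.05, 9 were higher and 0 lower, and the median log2 difference was 0.47. KRT19 rose by log2 1.01 (limma adjusted p = 0.0116), KRT7 by log2 0.79 (limma adjusted p = 0.0131) and KRT18 by log2 0.36 (limma adjusted p = 0.0239). MLPH (melanophilin) rose from 48.0 and 44.5 FPKM to 69.2 and 69.5 FPKM (log2 0.57, limma adjusted p = 0.0175). The 8 include TFF3, a secreted trefoil peptide gene named after its values were seen, with 0.561 and 1.12 FPKM in shControl against 4.62 and 4.85 FPKM in shLOXL2. TFF3 averaged 0.841 FPKM in shControl and so was tested only through its shLOXL2 values. When genes below 1 FPKM were tested too, 3 of the list were higher. The breast secretory genes SCGB2A2, SCGB1D2 and PIP were listed at 0 in all 4 libraries.

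**Figure D5:**
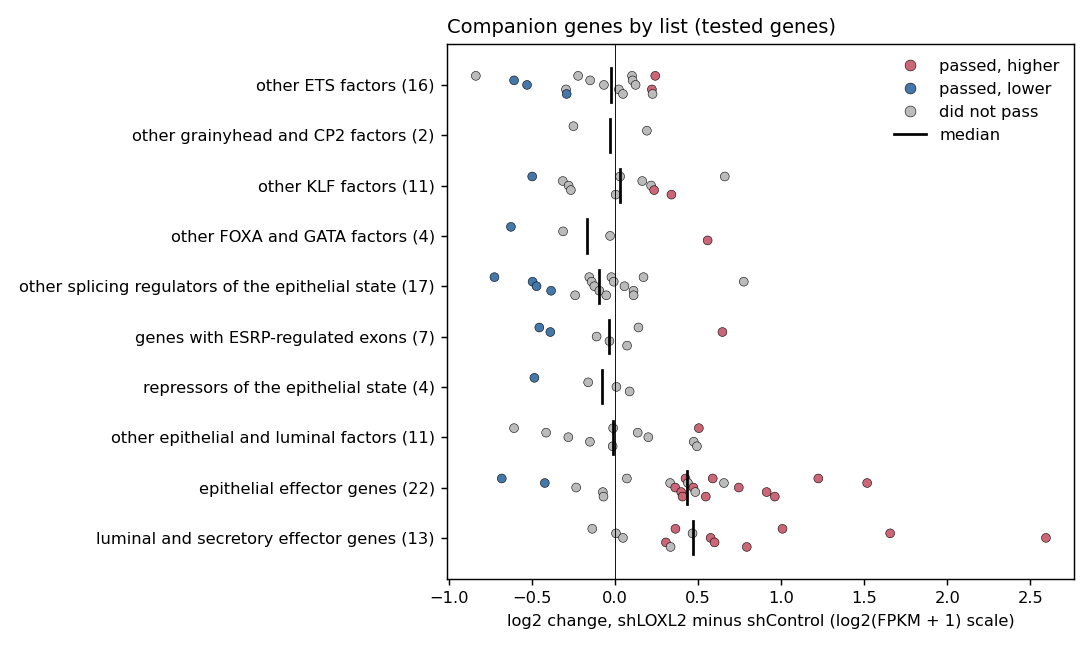
Log2 difference (shLOXL2 minus shControl) of each tested gene of 10 lists of relatives, regulators and effectors, 1 point per gene, red where it passed as higher, blue as lower and grey otherwise, with a bar at the median and the number of tested genes in brackets. The medians of the epithelial (0.43) and the luminal and secretory (0.47) effector genes lie above 0, and those of the factor lists lie between -0.17 and 0.03. The effector medians include PPL, CDH1 and TFF3, which were tested only through their shLOXL2 values.

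Across all lists, 107 of 162 matched genes were tested, of which 27 were higher and 14 lower in shLOXL2, against 8.35% and 8.54% of all tested genes in each direction. These lists were chosen with earlier results of these data known, so the counts are descriptions. The 27 include PPL and TFF3, which were tested only through their shLOXL2 values, as were CDH1 and TP63. ETV2 and MYB, which did not pass, were tested only through their shControl values. The medians of the effector lists include PPL, CDH1 and TFF3. With libraries scaled to the same FPKM sum without mitochondrial genes the split was 18 higher and 19 lower over the lists, and 1016 higher and 2171 lower in place of 1419 and 1450 over all tested genes. Under that scaling the epithelial effector genes had 9 higher and 2 lower at a median log2 difference of 0.37, and the luminal and secretory genes 6 higher and 1 lower at a median of 0.39. Leaving out any 1 library left from 0 to 1 of the lists' genes higher and 0 lower.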

How the data were processed

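RNA of 2 shControl and 2 shLOXL2 libraries of MDA-MB-231 cells was analysed. The authors deposited FPKM values per Ensembl gene. Per the submitters' processing notes, the tools were Bowtie and Cufflinks and the build was GRCh37; no version is stated. The annotation and the handling of strand are not given in the sources used here. Groups came from the sample titles. Symbols were matched for 39694 of 63657 identifiers. Genes averaging 1 FPKM or more (16987) were fitted as log2(FPKM + 1) with limma 3.58.1 (R 4.3.3), shLOXL2 against shControl, two-sided, with an intensity trend and Benjamini-Hochberg adjustment at 0.05, checked on simulated data. Members and lists were chosen with earlier results of these data known. All members are named, and of each list up to 4 genes with the smallest p past the threshold, with the closest relatives and repressors. Promoter windows are RefSeq's, GRCh38.p14. Alternatives covered pseudocount, filter, scaling, variance prior, a replicate block and each library left out. Comparison with peaks was planned and not run, since no GRCh37 annotation was used here. Proteins were not analysed here. Python was 3.11.15 with pandas 2.3.3.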

Additional observations from a re-analysis of the deposited data

How the results depend on the processing

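Over the alternatives, the 5 tested members kept their direction in 67 of 68 fits, a count that was mostly fixed in advance. Changing the filter, the variance prior or the replicate block cannot alter a log2 difference. Where the groups do not overlap, neither another pseudocount nor leaving out a library can turn its sign. KLF5, whose groups overlap, turned to a log2 difference of -0.11 without shLOXL2 replicate 1 (0.45 without shLOXL2 replicate 2). Without a filter on low values 601 genes were higher and 542 lower over the whole table, 1 member passed (SPDEF), and 12 genes of the lists were higher and 6 lower, in a fit with more genes tested. Without a trend in the variance prior 926 genes were higher. With the replicate block, which leaves 1 residual degree of freedom, 0 genes passed in either direction, members and lists included, with 5519 genes at an unadjusted p under 0.05. The differences between replicates 1 and 2 of the 2 groups correlated at -0.00127 across genes, and no label says that the numbers pair the libraries. With 1 library left out, from 18 to 220 genes were higher, from 70 to 217 lower, 0 members passed, and of the lists from 0 to 1 genes were higher and 0 lower; the lone library is then assumed to vary like the others. FPKM gives no depth, so no counting limit can be set for the 5 members below 1 FPKM. The planned window around gene starts for peaks was not run.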

Other observations

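Some factors linked to other mammary programmes were also read. TP63, a factor of basal cells, stood at 0.746 and 0.695 FPKM in shControl and at 1.61 and 1.24 FPKM in shLOXL2, and did not pass (limma adjusted p = 0.140). TP63 averaged 0.721 FPKM in shControl and so was tested only through its shLOXL2 values. RBM47, an RNA-binding protein gene of epithelia, stood at 2.77 and 1.74 FPKM against 4.32 and 4.68 FPKM, a log2 difference of 0.77 that did not pass (limma adjusted p = 0.0829). In each of these 2 genes both shLOXL2 libraries were above both controls, as for 64.6% of all tested genes in one direction or the other.

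SOX10, a neural crest factor also found in triple-negative breast tumours, was listed at 2.08 FPKM in shLOXL2 replicate 1 and at 0.0356, 0.00983 and 0.0477 FPKM in the other libraries. MUC1 was listed at 1.35 FPKM in shLOXL2 replicate 1 and at 0.113 FPKM in replicate 2, with 0.369 and 0.827 FPKM in shControl.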
